A study of Mus musculus with 22 samples.

Results

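The microRNA (miRNA) content of feces from irradiated mice was compared with that of the small intestine of irradiated mice. Of 22 Agilent mouse miRNA arrays in the series, 8 entered this comparison, chosen by their titles: 4 arrays of feces RNA and 4 arrays of small intestine RNA, both from animals given 10 Gy. The animals were male mice aged 8 weeks, and X-rays were delivered at 1 Gy per minute. The other 14 arrays held serum at both doses and feces and intestine from mice given 0 Gy, and 8 of them (4 of feces and 4 of intestine at 0 Gy) are used below as the dose reference. Neither the mouse strain nor the time from exposure to collection is given in the sources used here. Whether the feces and the intestine came from the same animals, and whether replicates were separate animals, is not given either, so p-values measure only the spread between these samples.

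Every feces array lay on one slide and every intestine array on another, and the effects of sample type and of slide cannot be told apart. The labels also record that intestine RNA was quantified by absorbance and feces RNA by a fluorescent dye. The mass of RNA put on an array is not given, and all levels are therefore relative to the other miRNAs of the same array. In such bulk samples, fewer cells of a type and less RNA per cell cannot be told apart.

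A miRNA is a short RNA that is cut from a hairpin precursor, loaded into an Argonaute protein and paired with messenger RNAs through its seed, bases 2 to 8 from the 5′ end. Either arm of the hairpin, named 5p or 3p, can become the mature strand. Many miRNAs mark cell types: miR-215 and its paralog mark gut epithelium, miR-143 and miR-145 smooth muscle and mesenchyme, miR-126 endothelium, miR-142 and miR-223 blood cells. Fecal RNA comes from shed epithelial cells, other host cells, food and the gut bacteria, in a place rich in nucleases.

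The mature sequences below carry the main contrasts, and capitals mark the seed. The first 6, from 2 seed groups, were higher in intestine in every tested member of their group. They are followed by miR-215-5p and miR-34a-5p, also higher in intestine, by 2 pairs that share a seed but differed in opposite directions, and by 6 miRNAs that were higher in feces. Sequences are from RefSeq (GRCm38.p6), which matched 1608 of the 1881 miRNAs on the array and 465 of the 539 tested.
let-7a-5p: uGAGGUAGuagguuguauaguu
let-7e-5p: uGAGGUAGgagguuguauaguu
let-7i-5p: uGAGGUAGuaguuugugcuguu
miR-16-5p: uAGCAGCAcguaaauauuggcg
miR-195a-5p: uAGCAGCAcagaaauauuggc
miR-497a-5p: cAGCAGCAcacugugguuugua
miR-215-5p: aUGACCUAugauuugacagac
miR-34a-5p: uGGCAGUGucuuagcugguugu
miR-106b-5p: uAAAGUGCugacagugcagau
miR-17-5p: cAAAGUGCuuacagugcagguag
miR-130a-3p: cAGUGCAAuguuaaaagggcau
miR-721: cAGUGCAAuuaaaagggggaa
miR-483-5p: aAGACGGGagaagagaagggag
miR-7088-5p: gCAAGUGGuggugaggaggggaaac
miR-7045-5p: aGCGGGUGggggagggggacu
miR-7052-5p: uGUGGGAAgguggaggccuuu
miR-188-5p: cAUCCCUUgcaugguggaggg
miR-762: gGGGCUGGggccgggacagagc

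Feces and intestine of irradiated mice shared many detected miRNAs but differed in the levels of most. Detection on an array required a probe of the miRNA for which 50% or more of the spots read well above background. Irradiated feces had 469 ± 23.3 detected miRNAs per array (SD, n = 4, from 445 to 494) and irradiated intestine 366 ± 27.4 (SD, n = 4, from 332 to 389). The groups did not overlap, and the two-sided exact permutation p was 0.0286, the smallest that 4 against 4 arrays allow. Leaving out any 1 array raised this p to 0.0571, the smallest that 3 against 4 allow. Summed signal over detected miRNAs was 557031 ± 99488.8 in feces and 401924 ± 41372.1 in intestine (SD, n = 4 each), and the groups overlapped (exact permutation p = 0.0571).

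In all, 400 miRNAs were detected on all 4 feces arrays and 316 on all 4 intestine arrays. The 184 in both sets made up 46% of the feces set and 58.2% of the intestine set. A further 161 were found on every feces array and on no intestine array, and 105 showed the reverse. Across 539 tested miRNAs, arrays correlated at r = 0.956 to 0.984 within feces, 0.973 to 0.993 within intestine and 0.105 to 0.3 between them. These correlations are across miRNAs, which are not independent replicates.

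Of the 539 miRNAs detected on at least 4 of the 8 arrays, 495 (91.8%) differed between feces and intestine at an adjusted p below 0.05 (limma with Benjamini-Hochberg adjustment). Values are log2 of each miRNA's signal after scaling to its array's 75th percentile, and every difference below is feces minus intestine on that scale. In feces, 291 were higher (54% of those tested) and in intestine 204 (37.8%). With the percentile taken instead over the 81 miRNAs detected on all 22 arrays, serum included, the split was 203 higher in feces and 252 higher in intestine. The balance between the directions is therefore a matter of scaling. Under the 6 scalings tried, the median difference of all tested miRNAs lay between -0.29 and 1.39, and it was 0.93 in the main one. For 468 miRNAs (86.8%) the arrays of the groups did not overlap.

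The differences were large. For 347 of the 539 (64.4%) the difference exceeded 2 in size, a 4-fold change, and for 77 it exceeded 5, a 32-fold change, of which 22 were higher in feces and 55 in intestine. Many of these rest on a group without detection: 94 tested miRNAs sat at the floor of -7.21 on all 4 feces arrays and 83 on all 4 intestine arrays. A fold for such a miRNA is given as a lower bound, the brighter group's mean over the background limit of the dimmer group, and those bounds are written "at least". A group at the floor on all 4 arrays has no spread in the fit. The p-value of such a miRNA therefore rests on the floor and does not test the bound printed with it. Among the 184 miRNAs detected on all 8 arrays, 161 were called, 90 higher in feces and 71 higher in intestine. Their median difference was 0.49, and 104 (56.5%) exceeded 2 in size.

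**Figure D1:**
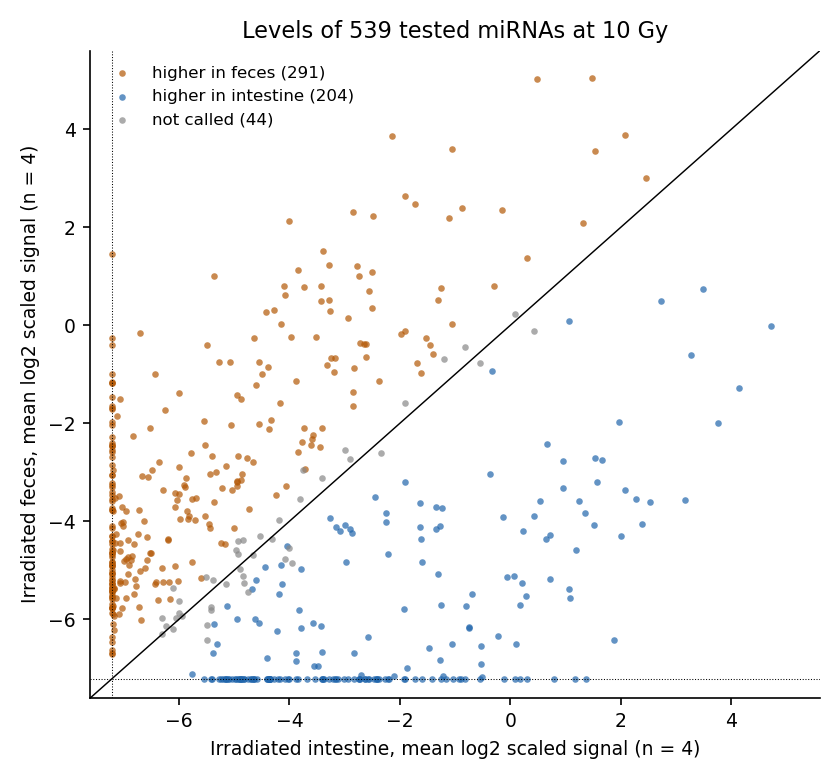
Mean log2 scaled signal of 539 tested miRNAs in irradiated intestine (horizontal axis, n = 4 arrays) and irradiated feces (vertical axis, n = 4 arrays), each point a miRNA, coloured by the limma call. Dotted lines mark the floor of -7.21 and the solid line equal levels: 291 points called higher in feces lie above that line and 204 called higher in intestine lie below it.

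The labelled tissue carried its markers. All 13 miRNAs listed as intestinal epithelial were detected on all 4 intestine arrays, as were 14 of 15 listed for smooth muscle and mesenchyme. Liver and pancreas markers were mostly absent from both materials: 5 of 7 on the array, among them miR-122-5p, miR-216a-5p and miR-217-5p, were detected on none of the 8 arrays. Of 9 neuron and glia markers, 4, among them miR-124-3p and miR-9-5p, which define neurons, were likewise on none. The intestine arrays did hold others of that list: miR-128-3p, miR-218-5p and miR-137-3p were on all 4 of them and on no feces array (at least 3.75-fold, 3.17-fold and 2.06-fold higher in intestine).

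Epithelial miRNAs were found in feces but at lower relative level. Of the 13 listed, 9 were detected on all 4 feces arrays, and all 13 were higher in intestine, with differences from -6.71 to -2.82 and a median of -4.22. Over all tested miRNAs, 37.8% were higher in intestine. The 9 detected on all 8 arrays were also all higher in intestine, with a median of -3.94, against 0.49 for all 184 such miRNAs. miR-215-5p, which belongs to a p53-responsive gut epithelial family, had processed signals of 184, 182, 63.0 and 126 on the 4 feces arrays and 8093, 8862, 7207 and 12412 on the 4 intestine arrays. Feces replicate 3 was the lowest of its group, and the groups did not come near each other. After scaling the difference was -6.71 ± 0.37 (SE; limma adjusted p = 7.12e-08).

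miR-375-3p, a marker of enteroendocrine and islet cells, gave signals of 18.7, 27.9, 10.1 and 13.7 in feces and 1298, 931, 1249 and 892 in intestine. It was detected on 2 of 4 feces arrays and on all intestine arrays, with a difference of -6.60 ± 0.32 (SE; limma adjusted p = 2.64e-08). miR-203-3p, of keratinised and other epithelia, and miR-31-5p were on no feces array, and both were at least 20-fold higher in intestine (bounds of 20.1 and 20.2).

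Most mesenchymal and muscle miRNAs were not detected in feces. On feces arrays, 12 of the 14 tested members were detected nowhere; these entered the test only through the intestine arrays, which fixed their direction. The 2 detected on all 8 arrays, miR-133a-3p and miR-133b-3p, were both higher in intestine (median -2.83), as the list median was with undetected members at their bound (-2.82). miR-143-3p, a smooth muscle and mesenchymal miRNA, gave processed signals of -7.30, -5.58, -6.96 and -5.59 on feces arrays, at or below local background, and 2543, 2276, 2746 and 2856 on intestine arrays. It was at least 139-fold higher in intestine (limma adjusted p = 1.67e-10). Also on no feces array were miR-125b-5p (at least 17.7-fold higher in intestine), miR-199a-3p (at least 59.3-fold) and miR-199b-5p (at least 18.2-fold). The probes of miR-125b-5p differed in size, from -7.37 to -3.81.

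Most tested endothelial and blood-cell miRNAs were also higher in intestine. miR-126a-3p, which lies in the endothelial gene Egfl7, gave -4.20, -2.57, -5.53 and -2.78 on feces arrays and 1930, 2147, 2311 and 2773 on intestine arrays. No feces array had it well above background and every intestine array did, and it was at least 123-fold higher in intestine (limma adjusted p = 1.67e-10). Of 4 listed endothelial miRNAs, 2 were tested, the other being miR-221-3p (at least 3.01-fold higher in intestine). Both were on no feces array, which fixed their direction. miR-142a-3p, of all blood-forming lineages, gave 1.31, 1.06, 0.849 and 1.14 in feces and 349, 511, 653 and 659 in intestine, at least 20.7-fold higher (limma adjusted p = 8.17e-10). The granulocyte miRNA miR-223-3p was at least 19.1-fold higher in intestine and miR-342-3p at least 23.8-fold. Of 10 tested leukocyte-list members, 9 were higher in intestine, against 37.8% of all tested miRNAs. Of these, 7 were on no feces array, which fixed their direction, and 2 of the 10 were detected on all 8 arrays. The tenth, miR-181b-5p, was among the closest matches between the groups. Among red-cell miRNAs, miR-451a was at least 11.1-fold higher in intestine and miR-16-5p differed by -5.46 ± 0.34 (SE), while miR-486a-5p, at -0.33 ± 0.22 (SE, adjusted p = 0.172), was not called.

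**Figure D2:**
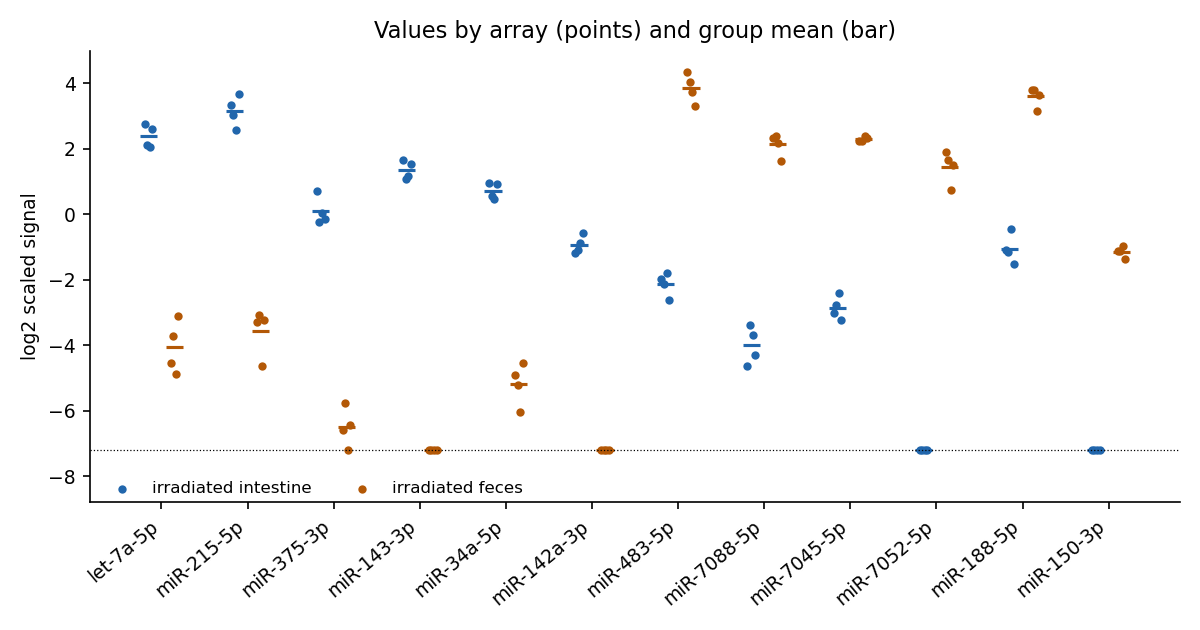
Log2 scaled signal (vertical axis) of 12 miRNAs on the 4 irradiated intestine and 4 irradiated feces arrays, each point an array and each bar a group mean. The dotted line is the floor of -7.21, where all 4 feces points of miR-143-3p and miR-142a-3p and all 4 intestine points of miR-7052-5p and miR-150-3p lie.

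Lists tied to the radiation response pointed the same way as the tissue lists. Of 12 tested miRNAs known as p53-responsive, all 12 were higher in intestine, with a median difference of -5.31, and so were the 8 of them detected on all 8 arrays. miR-34a-5p, a direct p53 target, gave signals of 60, 41.4, 23.8 and 50.5 in feces and 1550, 1612, 1660 and 1843 in intestine. Every intestine array exceeded every feces array, and the difference was -5.90 ± 0.30 (SE; limma adjusted p = 4.37e-08). Of 13 tested miRNAs listed for radiation and DNA damage, 12 were higher in intestine and miR-210-3p, a hypoxia-induced miRNA, was not called. Of the 6 detected on all 8 arrays, 5 were higher in intestine. On every intestine array and no feces array were 6 of these 13 and 3 of the 12 p53-responsive miRNAs, which fixed their direction. Over all tested miRNAs, 37.8% were higher in intestine. miR-24-3p, which is encoded with miR-23 and miR-27, differed by -5.20 ± 0.27 (SE) and miR-30c-5p by -5.40 ± 0.35 (SE). These lists overlap with the tissue lists: 26 miRNAs stand in more than 1 list, miR-143-3p and miR-215-5p among them.

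The let-7 family, broadly expressed in differentiated cells, was uniformly higher in intestine. All 9 tested members, miR-98-5p included, share the seed printed above and were called higher in intestine, against 37.8% of all tested miRNAs. The 7 detected on all 8 arrays had a median difference of -6.30, and miR-98-5p, on no feces array, was at least 5.69-fold higher in intestine. let-7a-5p gave signals of 77.9, 116, 53.7 and 136 in feces and 5426, 4689, 5024 and 5988 in intestine, a difference of -6.45 ± 0.37 (SE; limma adjusted p = 9.85e-08). Feces arrays varied more than intestine arrays here, with an SD of 0.80 against 0.36 on the log2 scale. let-7i-5p differed by -6.64 ± 0.21 (SE), and let-7e-5p was on no feces array and at least 28.7-fold higher in intestine. Because these sequences differ at few bases, an array cannot be taken to separate them fully.

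Other broadly expressed families did the same. All 6 tested miRNAs with the miR-15 and miR-16 seed were called higher in intestine, against 37.8% of all tested miRNAs. miR-16-5p differed by -5.46, and miR-15a-5p and miR-15b-5p, on 3 of 4 feces arrays, by -5.19 and -5.80. Another 3 that were on no feces array were higher by at least 42.6-fold (miR-195a-5p), 27.9-fold (miR-497a-5p) and 7.58-fold (miR-322-5p). All 10 tested members of the miR-29 and miR-30 families were higher in intestine, with a median of -4.73, as were the 6 of them detected on all 8 arrays and all 5 of the miR-23, miR-24 and miR-27 clusters, with a median of -4.83. miR-29a-3p, which targets collagen messages, differed by -5.43 ± 0.36 (SE). The largest difference towards intestine among miRNAs detected on all 8 arrays was that of miR-3968, at -8.29 ± 0.34 (SE), but its probes ranged from -8.09 to -3.58 and its feces level reached the floor on 1 array.

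Some seed groups were split. The proliferation-linked clusters miR-17/92 and miR-106b/25, with their paralogs, had 11 tested members. Of these, 10 were higher in intestine, against 37.8% of all tested miRNAs. The list median was -4.78 (-3.07 with undetected members at their bound, and -2.82 over the 3 detected on all 8 arrays). miR-92a-3p was called higher in intestine but detected on 1 feces array only, and its probes gave differences from -5.92 to -3.50. miR-106b-5p gave 19.7, 20.7, 4.56 and 17.3 in feces and 443, 457, 510 and 529 in intestine. miR-17-5p, with the same seed, went the other way: its signals were 61.6, 77.4, 228 and 83.6 in feces and 15.2, 13.0, 18.4 and 17.4 in intestine. Feces replicate 3 stood highest, the groups did not overlap, and the difference was 2.04 ± 0.40 (SE; limma adjusted p = 0.000671). Scaled on the 81 miRNAs detected on all 22 arrays, it fell to 0.71 and was not called (adjusted p = 0.117). miR-721 was higher in feces by 2.26 ± 0.20 (SE), while miR-130a-3p, with the same seed, was at least 62.9-fold higher in intestine. miR-6394 shares the seed of miR-125b-5p and was higher in feces by 2.13 ± 0.31 (SE), a bound of at least 1.18-fold.

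**Figure D3:**
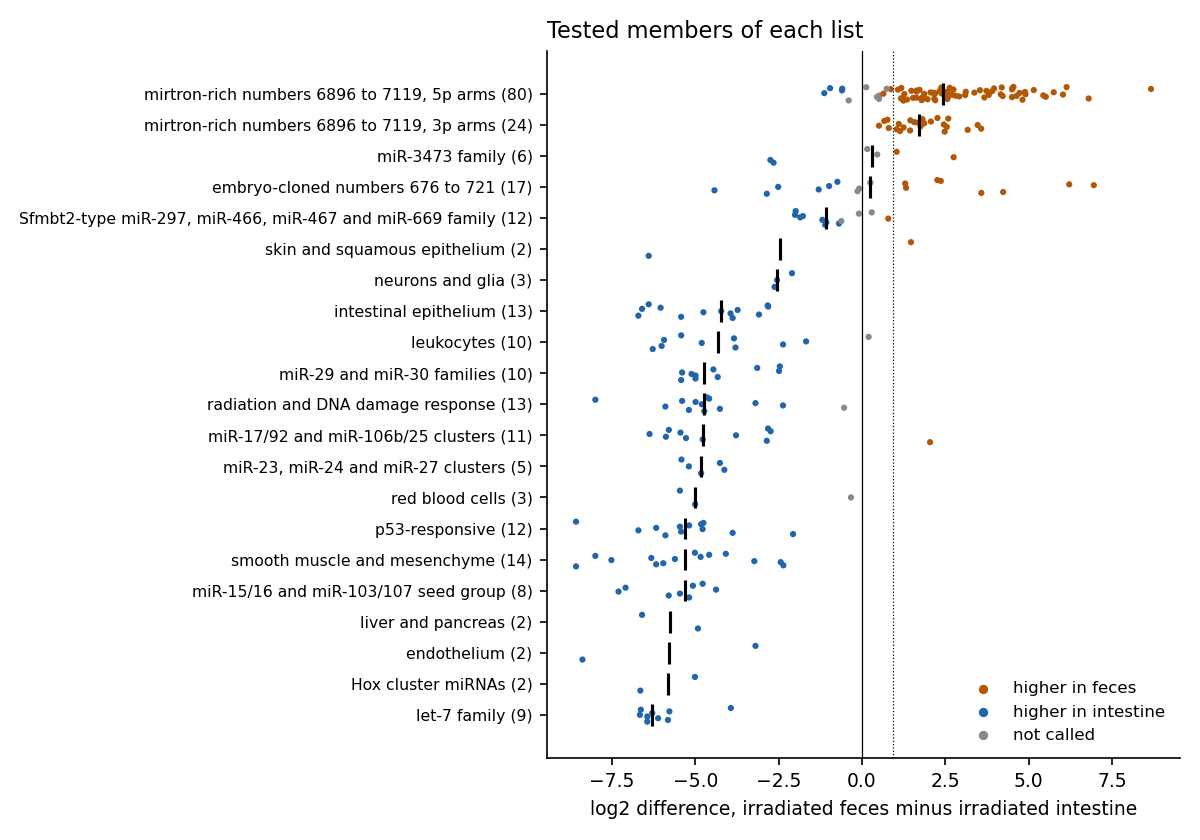
Log2 difference, irradiated feces minus irradiated intestine, of the tested members of each list (number tested in parentheses), each point a miRNA coloured by the limma call and each bar the list median. The dotted line is the median of all 539 tested miRNAs, 0.93: the let-7 family has the lowest median, -6.30, and the 5p arms from miR-6896 to miR-7119 the highest, 2.44.

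The miRNAs that were higher in feces were of another kind. They were mostly high-numbered entries, many of them mirtrons, which are hairpins made from short introns by splicing. Of 206 5p arms from miR-6896 to miR-7119 on the array, 80 were tested, 70 were higher in feces and 4 in intestine, with a median difference of 2.44 (1.77 with undetected members at their bound). Of the 80, 32 were on every feces array and no intestine array. Detection on all 8 arrays held for 36 of them, of which 29 were higher in feces and 4 in intestine, with a median of 2.51. Over all 539 tested miRNAs, 54% were higher in feces and 37.8% in intestine. Over all 184 detected on all 8 arrays, 90 were higher in feces and 71 in intestine. Of 204 3p arms in that range, 24 were tested, and 23 of these were on every feces array and no intestine array. They entered the test through feces alone, so that their direction was fixed by detection, and with undetected members at their bound their median was 0.37. Relative to all tested miRNAs, the 5p list's median stayed above 0 under all the scalings tried (0.59 to 1.54).

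miR-7088-5p, from the gene Mst1, which encodes a hepatocyte growth factor-like protein, gave processed signals of 9118, 8038, 7078 and 3651 in feces and 32, 104, 93.9 and 49.2 in intestine. Feces replicate 4 was the lowest of its group and still far above each intestine array. The difference was 6.14 ± 0.30 (SE; limma adjusted p = 2.64e-08), the largest towards feces among miRNAs detected on all 8 arrays. miR-7045-5p, from the chromatin remodeller gene Chd4, gave 8602, 7129, 8353 and 5865 in feces and 99.4, 160, 227 and 104 in intestine, a difference of 5.16 ± 0.19 (SE). Its 3p arm was found on every feces array, on no intestine array, and was at least 4.38-fold higher in feces.

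miR-7052-5p, within Josd2, a deubiquitinase gene, was the largest difference of all towards feces. Its signals were 6787, 4801, 2664 and 3354 in feces and -3.38, 2.79, 6.03 and -0.755 in intestine. It was well above background on every feces array and on no intestine array, at least 107.4-fold higher in feces (limma adjusted p = 8.56e-10). Other 5p arms of the same number range were miR-7020-5p, within the proline catabolism gene Aldh4a1, at 4.89 ± 0.31 (SE; its probes ranged from 3.77 to 7.06), miR-7011-5p, within Sema4a, at 4.73 ± 0.23 (SE), and miR-6995-5p at 4.91 ± 0.19 (SE). miR-6942-5p and miR-6991-5p were on no intestine array and at least 13.3-fold and 15.6-fold higher in feces. The few 5p arms of this range that were higher in intestine were so by at most 1.13 in size: miR-7009-5p, miR-7070-5p, miR-7042-5p and miR-7058-5p. Without scaling none of these 4 was called, and miR-7042-5p and miR-7058-5p also lost their call without feces replicate 1 (-0.53 and -0.59), without feces replicate 3 (-0.49 and -0.39) and without intestine replicate 3 (-0.47 and -0.41), and miR-7058-5p without intestine replicate 2 (-0.61).

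Several well-known loci also gave fecal signal. miR-483-5p, from an intron of the growth factor gene Igf2, gave 36965, 24977, 21026 and 11758 in feces and 201, 246, 349 and 159 in intestine. The groups lay far apart, with feces replicate 4 lowest in feces, and the difference was 6.0 ± 0.26 (SE; limma adjusted p = 1.17e-08). miR-188-5p, from the chloride channel gene Clcn5, gave 24955, 21314, 14167 and 14711 against 373, 488, 879 and 339, a difference of 4.66 ± 0.25 (SE). miR-5119, within the kinase gene Cdk12, differed by 4.69 ± 0.23 (SE), and miR-5112 and miR-1892 by 4.96 ± 0.31 and 4.69 ± 0.25 (SE).

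miR-150-3p, the less used arm of a lymphocyte miRNA, was found on every feces array, with signals of 827, 695, 798 and 459, and on no intestine array, where signals were -11.5, -9.15, -7.31 and -14.6. It was at least 7.75-fold higher in feces. Its 5p arm, the one used in lymphocytes, was on no feces array. Further miRNAs found on all feces and no intestine arrays were miR-710 (at least 9.59-fold), miR-1929-3p (at least 15.1-fold), miR-711 (at least 4.21-fold) and miR-762 (at least 3.93-fold). miR-711 lies in the collagen gene Col7a1 and miR-1929-3p in the autophagy gene Atg5. miR-184-3p, an epithelial miRNA of cornea and skin, was on all 4 feces arrays and no intestine array, but its level was too near the background limit for a fold.

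Mouse-specific repeat-derived families held members of both directions. Of 61 Sfmbt2-type entries (miR-297, miR-466, miR-467 and miR-669, encoded in an intron of Sfmbt2 and at related sites), 36 were detected on no array and 12 were tested. Of these, 8 were higher in intestine (66.7%, against 37.8% of all tested miRNAs). They were led by miR-669c-3p at -2.01 ± 0.21 (SE), miR-669p-3p at -1.99 ± 0.18 and miR-466q at -1.85 ± 0.19. Only miR-466i-5p was called higher in feces, at 0.79 ± 0.33 (SE; limma adjusted p = 0.0430). That call was lost when feces replicate 1, 2 or 4 or intestine replicate 1, 3 or 4 was left out (0.30 to 0.78), and the sign turned to -0.54 when scaled on the 81 miRNAs detected on all 22 arrays. Of 17 tested entries from miR-676 to miR-721, first cloned from embryos, 8 were higher in feces and 6 in intestine, miR-680 at 4.24 ± 0.26 and miR-690 at -4.43 ± 0.33 (SE). These shares, 47.1% and 35.3%, are near the 54% and 37.8% of all tested miRNAs. Their median of 0.25 turned to -1.08 under the 22-array scaling, to -0.085 over the 9 detected on all 8 arrays, and to -0.051 without intestine replicate 1. In the miR-3473 family, miR-3473b (-2.75 ± 0.36) and miR-3473a (-2.65 ± 0.44) were higher in intestine, miR-3473c (at least 4.10-fold) and miR-3473f (1.04 ± 0.36, SE) in feces. The call of miR-3473f was lost without intestine replicate 1 (0.60), and its sign turned to -0.29 under the 22-array scaling.

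A small set stood near equality. For 13 miRNAs detected on all 8 arrays, the 95% interval of the difference lay within 1 log2 unit (2-fold) of 0. The closest were miR-702-3p (-0.08 ± 0.20), miR-3473g (0.16 ± 0.16), miR-6378 (0.17 ± 0.16), miR-149-5p (0.19 ± 0.16), miR-181b-5p (0.20 ± 0.23), miR-6392-3p (0.24 ± 0.23), miR-712-5p (0.25 ± 0.16) and miR-125a-3p (-0.26 ± 0.22, all SE). The probes of miR-712-5p went opposite ways, from -1.02 to 1.21. Being near 0 depends on the scaling: under the 22-array percentile all 8 were higher in intestine, by -1.08 to -1.59.

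Both arms were tested for 58 hairpins and both were called for 48. Of these, 24 had both arms higher in feces and 17 both higher in intestine. Most of the agreeing pairs had an arm that was detected on no feces array or on no intestine array, which fixed its direction. The 7 with arms in opposite directions, named after their values were seen, were let-7b, miR-17, miR-193b, miR-375, miR-466i, miR-574 and miR-652. In 6 of these the 3p arm was the one higher in intestine, and in let-7b it was the 5p arm. For miR-375, the arm used in enteroendocrine cells (3p) differed by -6.60, while the 5p arm was on all 4 feces arrays and no intestine array, too near the background limit for a fold. For miR-652 the arms differed by -5.12 ± 0.20 (3p, on 2 of 4 feces arrays, its probes from -4.61 to -2.06) and 1.21 ± 0.24 (5p). miR-193b-3p was on no feces array, at least 2.13-fold higher in intestine, and miR-193b-5p on no intestine array, with its signal about at the background limit there. let-7b-3p was on no intestine array (at least 1.15-fold higher in feces) and miR-17-3p on no feces array (at least 4.74-fold higher in intestine). Among hairpins with each arm called and detected on all 8 arrays, the arms were opposite in miR-466i and miR-574. They agreed only in miR-1897, higher in feces by 3.59 ± 0.22 (5p) and 0.78 ± 0.28 (3p, both SE).

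The directions also differed in base composition, which the choice of arrays did not use. Mature sequences of miRNAs higher in feces had a median G + C share of 62.5% (n = 257) and those higher in intestine 45.5% (n = 173), with median G shares of 42.9% and 23.8%. Median length was 22 bases in both. The letters GGGG, read on the mature strand, stood in 83 (32.3%) of the feces-higher and 7 (4.05%) of the intestine-higher sequences, in 99 (21.3%) of all 465 tested, and in 182 (11.3%) of the 1608 array miRNAs with a sequence. Among miRNAs detected on all 8 arrays, they stood in 41 of 82 (50%) and 4 of 58 (6.90%), and in 32.5% of all. Of the 44 miRNAs not called, 35 (79.5%) had a sequence, with a median G + C share of 61.9% and GGGG in 9 (25.7%). Their median G + C share lay near that of the feces-higher miRNAs, so a high share was not particular to the latter. Fewer than 80% of those not called have a sequence, and no more is read from them. The median G + C share was 57.1% over all tested and 52.2% over the array miRNAs with a sequence.

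In bins of G + C share, the median difference was -3.78 below 40% (n = 39) and -3.94 from 40% to 50% (n = 84). It was 1.30 from 50% to 60% (n = 150), 1.93 from 60% to 70% (n = 145) and 1.88 at 70% or more (n = 47). Of the 47 in the last bin, 39 were higher in feces and 1 in intestine, and of the 39 in the first, 1 and 37. Across miRNAs the share of G + C correlated with the difference at Pearson's r = 0.57 and Spearman's rho = 0.56 (n = 465), and at r = 0.58 over the 160 with a sequence detected on all 8 arrays. These points share arrays and slides, and base composition also bears on probe binding; its part in the differences was not tested.

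**Figure D4:**
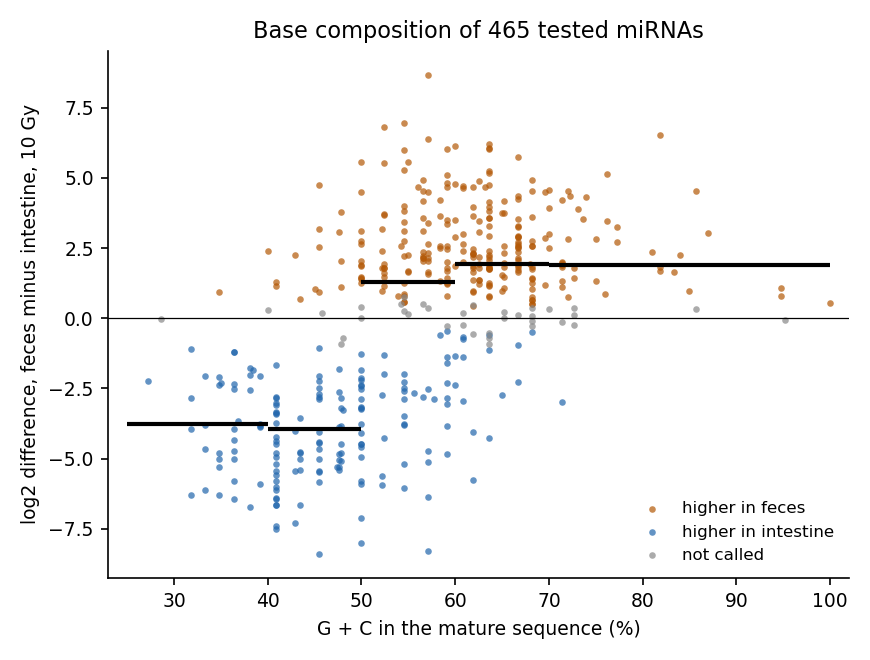
Share of G + C in the mature sequence (horizontal axis, percent) against the log2 difference, irradiated feces minus irradiated intestine (vertical axis), for 465 tested miRNAs with a RefSeq sequence, coloured by the limma call. Black bars are medians in bins of G + C share and run from -3.78 in the lowest bin to 1.88 in the highest.

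The feces-intestine contrast was set beside that of unirradiated mice, measured on other arrays of the same slides. Over 618 miRNAs detected on at least 4 of the 16 arrays, 536 (86.7%) differed between feces and intestine at 0 Gy. Of 487 called at both doses, 484 had the same direction, and the differences at 0 Gy and 10 Gy correlated at r = 0.96 across miRNAs. The contrast thus held at either dose for most miRNAs. A slide effect that is equal at both doses cancels in the difference between doses, the interaction. On both slides, however, the 0 Gy arrays lay in columns 1 and 2 and the 10 Gy arrays in columns 3 and 4. Dose and position on the slide therefore cannot be told apart in any comparison between doses below.

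The interaction was called for 155 of 618 miRNAs (25.1%, limma with Benjamini-Hochberg adjustment): feces relative to intestine was higher at 10 Gy for 51 (8.25%) and lower for 104 (16.8%). This split turned with scaling, to 122 and 59 with the percentile over all miRNAs, 104 and 83 with quantile normalization, 106 and 71 with normexp correction, and 3 and 139 without scaling. Of the 155, 101 had at least 1 of the 4 groups with no detecting array, where the level is set by the floor and the size of the interaction is no measurement; 34 were detected on all 16 arrays. For 138 of the 155 the feces-intestine difference had the same sign at both doses.

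miR-34a-5p was among them. In intestine its scaled levels were -3.14, -2.91, -3.28 and -2.66 at 0 Gy and 0.69, 0.26, 0.00 and 0.86 at 10 Gy. In feces it was detected on 1 of 4 arrays at 0 Gy and on all 4 at 10 Gy, at -5.18, -5.61, -6.42 and -4.94. It was thus above its 0 Gy range in both materials. Its interaction was called, but with feces at the floor at 0 Gy the size and direction of that change were not measured.

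The largest fitted interaction was that of miR-3091-5p (limma adjusted p = 2.90e-06), whose size rests on groups without detection. It was detected on all 4 feces arrays at 0 Gy (-5.18, -5.71, -4.44 and -6.08) and on none at 10 Gy, and on no intestine array at 0 Gy but on all 4 at 10 Gy (-3.68, -4.36, -4.19 and -4.37). Detection thus changed sides between the doses. It was 1 of the 3 miRNAs called in opposite directions at the 2 doses. The others, miR-351-3p and miR-714, likewise went from higher in feces at 0 Gy to higher in intestine at 10 Gy. miR-351-3p was on 3 feces arrays and no intestine array at 0 Gy, and on no feces array and 2 intestine arrays at 10 Gy. miR-714 was on no intestine array at 0 Gy and on all 4 arrays of each other group. miR-877-5p, from the gene Abcf1, was higher in feces at both doses, by 0.88 at 10 Gy. Its intestine levels were -6.50, -7.56, -6.38 and -6.44 at 0 Gy, where it was not detected, and -3.46, -4.06, -3.46 and -3.90 at 10 Gy. miR-721, higher in feces by 2.17 at 10 Gy, also had intestine detection at 10 Gy and not at 0 Gy, so that neither 0 Gy difference is a measured size.

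In the other direction, miR-494-3p, of an imprinted miRNA cluster, had the largest interaction, at 2.80 ± 0.62 (SE; limma adjusted p = 0.00548). Its intestine levels were 5.01, 3.38, 3.88 and 2.70 at 0 Gy and 1.81, 2.26, 2.83 and 2.94 at 10 Gy, and its feces levels -1.45, -0.92, -2.35 and -0.79 against 0.02, 0.05, -0.19 and 0.67. The feces arrays of the doses did not overlap, and the intestine arrays overlapped. miR-150-5p, the lymphocyte miRNA, was on no feces array at either dose. It was on all 4 intestine arrays at 0 Gy (-3.21, -5.27, -3.48 and -4.94) and on 1 at 10 Gy. Its interaction was called (limma adjusted p = 0.00645), but it compares intestine arrays with the floor. Neither its size nor its direction was measured.

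**Figure D5:**
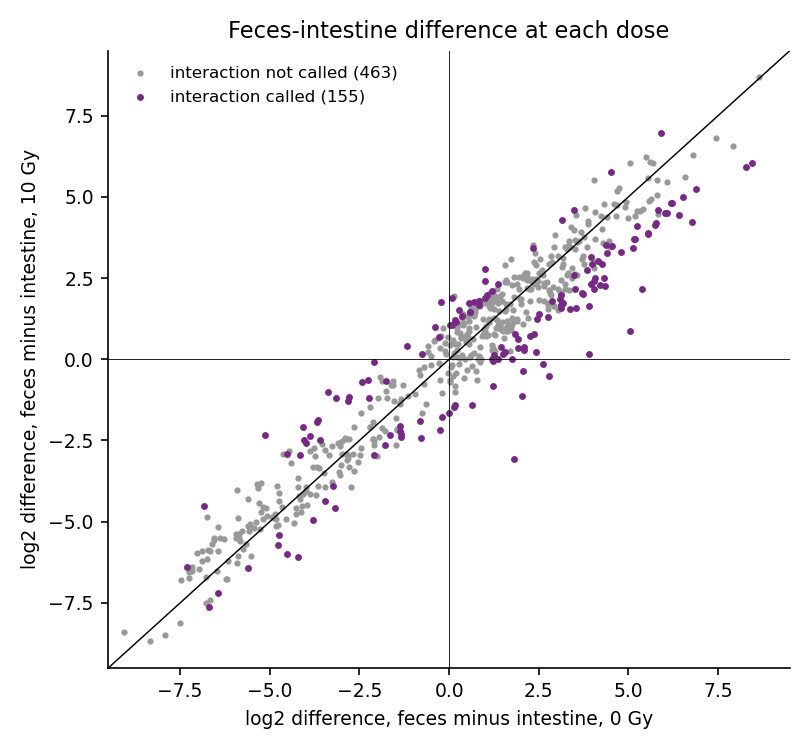
Log2 difference, feces minus intestine, at 0 Gy (horizontal axis) and at 10 Gy (vertical axis) for 618 miRNAs in 1 limma fit of 16 arrays, each point a miRNA. The solid line marks equal differences, most points lie near it (r = 0.96), and the 155 miRNAs with a called interaction are coloured.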

How the data were processed

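RNA labelled with Cy3 was read on 1-colour Agilent arrays, 1 sample per array. The deposited scanner files give spot intensity as processed by Agilent Feature Extraction 11.5, per the submitters' processing notes: per the file headers, background was subtracted by spatial detrending. The deposited series value table holds the same intensity on a linear scale, not centred. No spot was saturated.

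For each probe the mean intensity of its non-outlier spots was taken, and the probes of a miRNA were summed. Arrays were scaled by their 75th percentile among the 184 miRNAs found on all 8, and values were floored at 0.00673 and put on the log2 scale. The floor lies below the background limit, so differences against an undetected group can exceed what was measured, and bounds are given for these. limma 3.58.1 (R 4.3.3) was fitted to the 539 miRNAs detected on at least 4 arrays, with Benjamini-Hochberg adjustment and a threshold of 0.05; the script was tested on simulated data. A second fit used 16 arrays. Only the number of arrays limits the precision.

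Named miRNAs were the largest differences in each direction (detected in both groups, or in 1), the closest levels, up to 4 per list and direction, and the 6 largest interactions each way. miR-210-3p, miR-6394, miR-714, the arms of miR-1897 and the opposite arms were named after their values were seen. The comparison and the 21 lists were chosen with earlier results of these data known. Lists are described by counts and medians, with no test. For 1 of 380 called miRNAs with more than 1 probe, miR-345-5p, probes differed in sign (-2.07 and 0.02). Alternatives covered scaling, background correction, detection, floor, probes, weights, blocks, slide rows and each array left out.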

Additional observations from a re-analysis of the deposited data

Results flagged for a closer look

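In 34 of 112 named miRNAs in the fit, 12 of them named for the size of the interaction, against 155 of 618 (25.1%) in the whole fit, the feces-intestine difference depended on dose by the interaction term (limma with Benjamini-Hochberg adjustment), given here as the log2 difference at 10 Gy minus that at 0 Gy. In 17 of the 34, at least 1 of the 4 groups had no array with detection, and the value there rests on the floor; 9 were detected on all 16 arrays. The fitted difference moved towards intestine at 10 Gy for miRNAs that were already higher in intestine at 0 Gy: miR-223-3p (-1.88), miR-34a-5p (-1.46), miR-199a-3p (-0.92), miR-218-5p (-0.86), miR-137-3p (-0.83), miR-199b-5p (-0.82) and miR-497a-5p (-0.77). Of these, miR-199a-3p, miR-218-5p, miR-137-3p, miR-199b-5p and miR-497a-5p were on no feces array at either dose, so the values compare intestine arrays against the floor. In feces, miR-34a-5p was at or near the floor at 0 Gy, and miR-223-3p was on no array at 10 Gy. The sizes for these were therefore not measured. Nor was the direction for miR-34a-5p or for those on no feces array at either dose. The same holds for miR-150-5p and miR-142a-3p, listed below. The fitted difference also moved towards intestine for miRNAs that were higher in feces at 0 Gy: miR-3091-5p (-4.87), miR-877-5p (-4.16), miR-7083-5p (-3.74), miR-3113-5p (-3.30), miR-721 (-3.22), miR-351-3p (-3.14), miR-7088-5p (-2.40), miR-483-5p (-2.37), miR-680 (-1.59), miR-7020-5p (-1.42), miR-6995-5p (-1.38), miR-1892 (-1.23), miR-6392-3p (-1.10) and miR-3473e (-1.09). It moved towards feces for miR-494-3p (2.80), miR-150-5p (2.35), miR-690 (2.31), miR-7002-5p (2.02), miR-6998-5p (2.01), miR-669p-3p (2.00), miR-467f (1.79), miR-466q (1.75), miR-7042-5p (1.73), miR-677-3p (1.18) and miR-142a-3p (0.92, with miR-150-5p on no feces array at either dose), lower in feces at 0 Gy except miR-7002-5p, which was not called there (-0.24, adjusted p = 0.532), and for miR-5119 (1.12) and miR-710 (1.06), higher in feces at 0 Gy.

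In 10 of 179 groups of 4 arrays, 1 array stood apart from the other three by Dixon's criterion, which chance meets in about 1 in 20 groups. That rate does not apply to 3 of the 10 (miR-10a-5p, miR-342-3p and miR-678), whose other arrays lay at or within 0.02 of the floor. In feces, these were miR-10a-5p on replicate 4 (-7.04 against the floor on the others), miR-466q on replicate 4 (-4.29) and miR-669p-3p on replicate 4 (-3.14), miR-342-3p on replicate 2 (-6.96) and miR-215-5p on replicate 3 (-4.64 against -3.30 to -3.06). In intestine, they were miR-3473e (-2.16), miR-678 (-5.0) and miR-706 (-2.97) on replicate 2, miR-3473g on replicate 1 (0.29) and miR-712-5p on replicate 3 (-3.53).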

How the results depend on the processing

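The count of miRNAs differing between irradiated feces and intestine was 455 to 556 under every alternative except restriction to miRNAs detected on all 8 arrays, which left 184 tested and 158 called. Leaving out each array in turn gave 490 to 523. Deviations of same-numbered feces and intestine arrays correlated at r of -0.265 to 0.0946, and those of differently numbered arrays at -0.199 to 0.228. This cannot decide whether they came from the same animals, since different materials of an animal need not deviate together. With the replicate number as a block the counts were 489 for the contrast and 167 for the interaction, and miR-466i-5p and miR-7058-5p lost their call. The interaction count of 155 fell to 25 of 138 when only miRNAs detected on all 16 arrays were tested, rose to 254 with array weights (the cause was not tested), and was 106 to 225 with each array left out. Irradiated feces had 103 more detected miRNAs per array, and 92 to 111 more with each array left out, where p cannot go below 0.0571.

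Of the named miRNAs, 84 kept their verdict under every setting run. Scaling on the 81 miRNAs found on all 22 arrays turned the sign of miR-149-5p (-1.15), miR-181b-5p (-1.14), miR-3473e (-0.88), miR-3473f (-0.29), miR-3473g (-1.17), miR-466i-5p (-0.54), miR-6378 (-1.16), miR-6392-3p (-1.10), miR-669n (-1.04) and miR-712-5p (-1.08), and the medians of the miR-3473 family (-1.03) and of the entries from miR-676 to miR-721 (-1.08). The latter median was also -0.085 over miRNAs detected on all 8 arrays, and with each array left out it ran from -0.051 (without intestine replicate 1) to 0.38. Without scaling miR-702-3p was 0.49. Without intestine replicate 2, miR-3473e (0.74) and miR-669n (0.71) were called, and without feces replicate 3, miR-149-5p (0.31). With no filter, limma warned that most residual variances were 0. Below the background limit only bounds can be given.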
